A study of Homo sapiens with 4 samples.

Results

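MALAT1, NEAT1, NORAD, H19, KCNQ1OT1 and PVT1 are 6 long noncoding RNAs, chosen by name and matched through their Ensembl identifiers to the 60671 genes listed for 22RV1 and PC3 prostate cancer cells. GENCODE 29 classed 14828 of the listed identifiers as long noncoding RNA genes, and all 6 were among them. 22RV1 and PC3 are established human prostate carcinoma lines. Each line was stably transduced with a lentivirus expressing either shCON, a non-targeting short hairpin RNA (shRNA), or shDDX52, a hairpin against the DEAD-box RNA helicase DDX52, and all cells were selected with puromycin. A single hairpin sequence was used against DDX52. Each of the 4 groups (22RV1 shCON, 22RV1 shDDX52, PC3 shCON and PC3 shDDX52) had 1 library. No difference within or between the cell lines therefore has a replicate check or an error, and no p-value was computed.

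Long noncoding RNAs act as RNA molecules rather than as templates for protein. NEAT1 is the scaffold of paraspeckles, and MALAT1 collects in nuclear speckles beside splicing factors. NORAD binds the PUMILIO repressors, H19 and KCNQ1OT1 come from imprinted domains, and PVT1 is transcribed from the region next to the MYC oncogene. All 6 have been studied in cancer cells.

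Values are TPM, the length-corrected share of each transcript among those of a library, as deposited with 2 decimals. The log2 ratio is log2((TPM + 1) / (TPM + 1)) of the libraries compared, in which the added 1 shrinks the differences of low values. The target, DDX52, measured 4.88 (shCON) and 1.20 TPM (shDDX52) in 22RV1 cells, and 9.20 (shCON) and 2.07 TPM (shDDX52) in PC3 cells. Both knockdown libraries were therefore lower in the targeted gene, with log2 ratios of −1.42 and −1.73. KLK2, a prostate kallikrein gene, was 32.6 and 23.05 TPM in the 22RV1 libraries and listed at 0 in both PC3 libraries, while CAV1, which encodes the caveolar coat protein caveolin, was below 0.5 TPM in 22RV1 and at least 130.24 TPM in PC3. At 1 TPM or more, the libraries listed 13504 to 13738 genes, of which 1172 to 1294 were long noncoding RNA genes. The share of TPM from genes annotated as ribosomal RNA was 1.21%, 0.0872%, 0.0923% and 3.13% in the 4 libraries in the order given above, and that of the mitochondrial genome ranged from 8.10% to 13.0%. With TPM recomputed without both kinds of gene, the counts of members past 1.5-fold given below were the same, and the log2 ratio with shDDX52 was −0.70 in 22RV1 and −0.32 in PC3 for NEAT1 and 0.31 in PC3 for NORAD. TPM keeps no sequencing depth, so the reads behind a value are unknown.

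The 6 RNAs covered a wide range of levels, and none was among the leading long noncoding RNAs of these libraries. Together they made 84.39 (shCON) and 70.76 TPM (shDDX52) in 22RV1 cells, and 94.82 (shCON) and 96.49 TPM (shDDX52) in PC3 cells, which is under 0.01% of the TPM in each. By comparison GAS5, the host gene of a cluster of small nucleolar RNAs, alone was 497.23 TPM in 22RV1 shCON. NEAT1 was the highest of the 6 in both 22RV1 libraries and stood at rank 52 (shCON) and 89 (shDDX52) of the long noncoding RNA genes. NORAD was the highest in both PC3 libraries, at rank 38 and 32. H19 was below 1 TPM in PC3, and KCNQ1OT1 stayed below 0.1 TPM in every library. The names MALAT1 and NEAT1 are tied to abundant nuclear transcripts in many tissues, but in these values MALAT1 ranked from 108 (22RV1 shCON) to 237 (PC3 shDDX52) and was above just 58.6% of the genes of at least 1 TPM in 22RV1 shCON. TPM divides by length: multiplied by the kilobases of annotated exon, NEAT1 had the largest product in every library (from 315 in PC3 shDDX52 to 676 in 22RV1 shCON), and MALAT1 came second in 22RV1 (134 and 123) but lay behind NORAD and PVT1 in PC3 (79.6 and 63.4). The length by which the deposited TPM was divided is not known, so these products and their order hold only for the exon lengths used here. For NEAT1 that length was 22767 bases, whereas its short form has 3441.

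**Figure D1:**
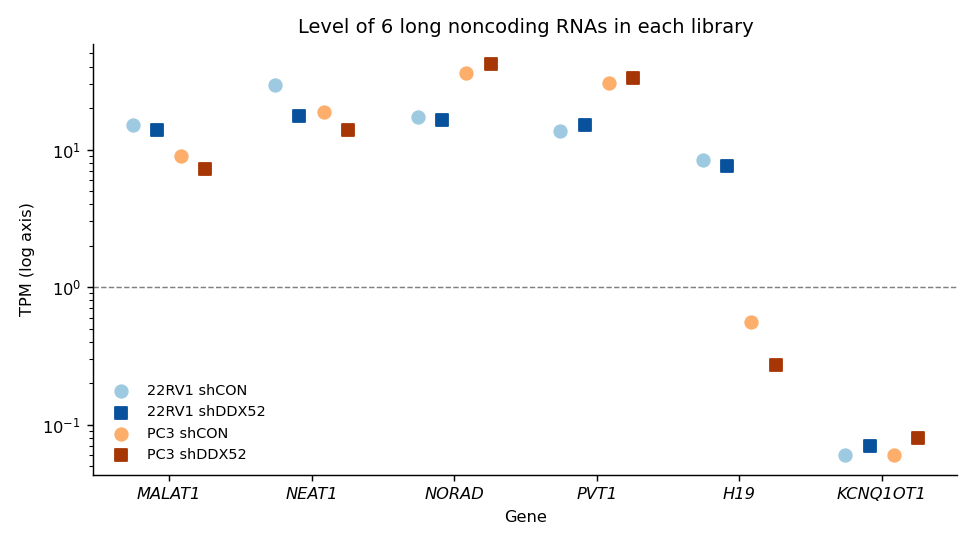
TPM (log axis) of the 6 long noncoding RNAs in each of the 4 libraries, 1 point per library, with circles for shCON, squares for shDDX52 and a dashed line at 1 TPM. MALAT1, NORAD, PVT1 and H19 separate the 2 cell lines, NEAT1 is highest in 22RV1 shCON (29.68 TPM), and KCNQ1OT1 lies between 0.06 and 0.08 TPM throughout.

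With shDDX52, NEAT1 was lower in both cell lines and was the single member to pass 1.5-fold, in 22RV1. In bulk RNA a lower level per cell and fewer cells with the RNA cannot be told apart. Of the 5 members with at least 1 TPM in 22RV1, 1 was at least 1.5-fold lower and 0 were higher. Among all 14438 genes of that filter 8.47% were that much lower and 5.61% higher, and among the 1507 long noncoding RNA genes 16.8% were lower and 12.4% higher. In PC3, 0 of 4 members passed 1.5-fold in either direction, beside 9.84% lower and 8.95% higher of all 14262 genes, and 21.9% lower and 13.8% higher of 1482 long noncoding RNA genes. A count of 1 in 5 or 0 in 4 is too small to be set apart from these shares, against which the counts of the partner lists are also to be read. The median log2 ratio of the members was −0.11 in 22RV1, beside −0.08 for all genes and −0.08 for long noncoding RNA genes. In PC3 it was −0.09, beside −0.04 and −0.12. Of the 4 members with at least 1 TPM in both lines, MALAT1 and NEAT1 had ratios below 0 in both, as 32.5% of 12175 genes did, and PVT1 had ratios above 0 in both, as 18.5% did. NORAD was slightly lower in 22RV1 and higher in PC3.

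**Figure D2:**
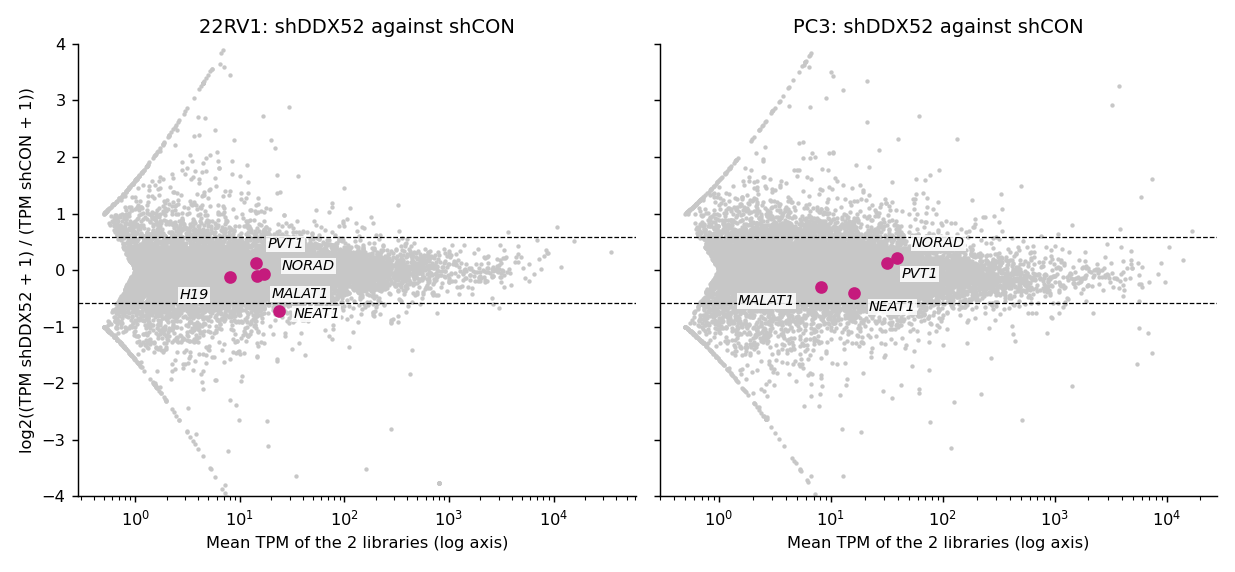
log2 ratio of shDDX52 to shCON (TPM + 1) against the mean TPM of the 2 libraries (log axis) in 22RV1 (left) and PC3 (right), with grey points for all genes of at least 1 TPM in either library, coloured points for the members, and dashed lines at 1.5-fold; 32 genes in 22RV1 and 57 in PC3 lie beyond the plotted limit of 4. NEAT1 lies beyond the lower line in 22RV1 and inside both lines in PC3, and every other member lies inside both lines.

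NEAT1 (ENSG00000245532) is on the plus strand of chromosome 11 at 65422774 to 65445540 (GRCh38, GENCODE 29), and its exons together cover 22767 bases. Inside it, on the same strand, lie 4 short identifiers: the microRNA gene MIR612, and RF01955, RF01956 and RF01957, which GENCODE classes as misc_RNA. All are segments of NEAT1 exon, and none is shown here to be a separate RNA. It makes a short polyadenylated form, 3441 bases in GENCODE, and a long form of 22743 bases that builds the paraspeckle. NEAT1 measured 29.68 (shCON) and 17.58 TPM (shDDX52) in 22RV1 cells, and 18.66 (shCON) and 13.82 TPM (shDDX52) in PC3 cells. The shDDX52 library was the lower one in each line, and both shDDX52 libraries lay below both shCON libraries, as for 9.25% of the 12175 genes measured in both lines. Of the other members measured in both lines, 0 had this order.

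NEAT1 in 22RV1 shDDX52 was 59.2% of its control, a log2 ratio of −0.72, and in PC3 shDDX52 it was 74.1%, a log2 ratio of −0.41. Genes of similar level vary less than the whole table. Among genes with a mean of 10 to 50 TPM, a band set after the values were seen, 5.09% of 4302 were at least 1.5-fold lower in 22RV1 and 7.11% of 4488 in PC3. In that band 113 genes (2.63%) had a ratio at or below that of NEAT1 in 22RV1, and 675 genes (15.0%) in PC3. Gene-level TPM does not separate the short from the long form. Under every alternative scaling and pseudocount tried, the ratio of NEAT1 lay between −0.75 and −0.62 in 22RV1 and between −0.43 and −0.29 in PC3.

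Few proteins of the paraspeckle passed 1.5-fold. Of 30 paraspeckle proteins 28 reached 1 TPM, and 0 passed 1.5-fold in 22RV1 (median log2 ratio −0.07), while in PC3 1 was lower and 1 higher (median −0.12). NONO, a core protein that NEAT1 needs for its stability, measured 370.71 (shCON) and 359.61 TPM (shDDX52) in 22RV1 cells, and 202 (shCON) and 224.66 TPM (shDDX52) in PC3 cells. Its partner SFPQ was 201.93, 175.15, 136.61 and 122.62 TPM in the same order. NONO and SFPQ were both higher in the 22RV1 libraries than in the PC3 libraries, and neither passed 1.5-fold with shDDX52. PSPC1, the third member of this protein family, was 38.53, 35.36, 68.11 and 46.51 TPM, with a log2 ratio of −0.54 in PC3.

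The 3′ end processing factors CPSF6 and NUDT21, which promote polyadenylation of the short NEAT1 form, had the largest negative ratios of the list in 22RV1, at −0.55 and −0.54, just inside 1.5-fold. RBM7, a cofactor of nuclear RNA decay, was at 0.54 and ZC3H6 at 0.49. In PC3 the largest values belonged to FAM98A at 0.77, which passed, to RBM4B, a splicing regulator, at −0.61, which passed, and to MATR3, a nuclear matrix RNA-binding protein, at −0.56. MATR3 has a pair of identifiers in the table, and the one with the lower number was used.

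MALAT1 (ENSG00000251562) starts 52147 bases downstream of NEAT1 on the same strand, at 65497688 to 65506516 of chromosome 11, with 8829 bases of exon. MALAT1 measured 15.16 (shCON) and 13.95 TPM (shDDX52) in 22RV1 cells, and 9.02 (shCON) and 7.18 TPM (shDDX52) in PC3 cells. The 22RV1 libraries were both higher than the PC3 libraries, and within each line the shDDX52 library was slightly lower. MALAT1 kept 92.0% of its control level in 22RV1 (log2 ratio −0.11) and 79.6% in PC3 (log2 ratio −0.29). In 22RV1, 44.8% of the genes of 10 to 50 TPM had a ratio at or below that of MALAT1, which put it near the middle of genes of its level.

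Most neighbours of the pair stayed within 1.5-fold, though more of them passed in PC3 than in 22RV1. Within 250 kb of either gene, a window chosen after the values were seen, 24 genes reached 1 TPM in 22RV1. Of these 1 was at least 1.5-fold lower and 0 were higher, beside 8.47% and 5.61% of all genes. The median log2 ratio of the 24 was 0.09, with 16 above 0. The 1 lower gene was FAUP4, a pseudogene of the ribosomal protein gene FAU whose reads are hard to tell from those of its parent, at 17.56 TPM with shCON and 1.94 TPM with shDDX52. FRMD8, the next gene before NEAT1, was 19.27, 16.84, 19.67 and 20.86 TPM in the 4 libraries. In PC3, 5 of 25 genes were lower (LTBP3, KCNK7, FAM89B, AP000944.1 and RELA-DT) and 3 were higher (FAUP4, PGAM1P8 and RF01957), with a median of −0.18. RF01957 is a segment of NEAT1 itself, so although it is in these counts it is not a neighbouring gene. These genes were named after their values were seen. Among all genes in PC3, 9.84% were that much lower and 8.95% higher, and the difference from the neighbours was not tested.

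MALAT1 and the long form of NEAT1 do not end in an ordinary poly(A) tail. RNase P cuts each precursor just before a tRNA-like element, and the new end folds back so that a genome-encoded stretch of A pairs with U-rich stretches in a triple helix. The last bases before the cut in MALAT1, its tRNA-like product mascRNA, and the last bases of the long NEAT1 transcript are shown because both RNAs hold the same stretch of 16 bases there, given in capitals. They lie on the plus strand of GRCh38, at chr11:65506007-65506116, chr11:65506117-65506174 and chr11:65445431-65445540, and the ends of mascRNA are those of RefSeq.
MALAT1 3′ end: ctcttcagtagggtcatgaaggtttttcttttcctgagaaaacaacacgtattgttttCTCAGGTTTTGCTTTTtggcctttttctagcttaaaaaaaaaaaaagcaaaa
mascRNA: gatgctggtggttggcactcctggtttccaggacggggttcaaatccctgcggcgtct
NEAT1 3′ end: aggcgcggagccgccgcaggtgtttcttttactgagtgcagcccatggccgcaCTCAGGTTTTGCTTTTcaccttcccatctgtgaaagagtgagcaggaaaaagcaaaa
The stretch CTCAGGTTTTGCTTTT occurs in 2 of 206534 GENCODE 29 transcripts, from these 2 genes. Both ends close with the same letters gcaaaa after a run of A, which is 13 bases long in MALAT1 and 5 in NEAT1. How the libraries were selected for RNA is not stated beyond the name of the kit, so the recovery of ends of this kind was not tested.

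Genes for this processing were measured in all 13 cases. In 22RV1, 2 of 13 were at least 1.5-fold lower and 0 higher (median log2 ratio −0.15), and in PC3 1 was lower and 0 higher (median −0.26). POP4, a protein subunit of RNase P and RNase MRP, measured 27.54 (shCON) and 17.25 TPM (shDDX52) in 22RV1 cells, and 70.35 (shCON) and 41.47 TPM (shDDX52) in PC3 cells. The shDDX52 library was the lower one in each line, with log2 ratios of −0.65 and −0.75. POP1, the largest protein subunit of the same enzymes, was at −0.62 in 22RV1. Below the threshold were RPP38 at −0.43 and POP5 at −0.42 in 22RV1, and POP5 at −0.53, RPP30 at −0.43 and METTL16 at −0.36 in PC3. METTL16, the methyltransferase that binds the MALAT1 triple helix, was 11.73, 10.44, 13.08 and 9.94 TPM in the 4 libraries.

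Some nuclear speckle proteins, the company of MALAT1, passed 1.5-fold in PC3 alone, and the difference between the lines was not tested. All 24 reached 1 TPM, 0 passed 1.5-fold in 22RV1 (median −0.03), and 5 were lower and 0 higher in PC3 (median −0.16). These were SF3B1, the U2 snRNP subunit, which was 67.2 TPM with shCON and 25.3 with shDDX52 (log2 ratio −1.37), the speckle core protein SRRM2, at 220.2 and 118.49 TPM (−0.89), BCLAF1 (−0.76), and the splicing factors SRSF6 (−0.72) and SRSF5 (−0.64), the last named after its value was seen. In the 22RV1 libraries SF3B1 was 24.23 and 21.72 TPM, near its PC3 shDDX52 value and below its PC3 shCON value. SRRM2 was 316.55 and 334.32 TPM there, above both of its PC3 values. SON, the other core protein of speckles, measured 67.39 (shCON) and 54.46 TPM (shDDX52) in 22RV1 cells. In PC3 cells it was 59.84 (shCON) and 61.27 TPM (shDDX52). SON thus did not follow SRRM2 in PC3. Its log2 ratio in 22RV1 was −0.30, beside SRSF3 at −0.38, SRSF6 at −0.28 and THRAP3 at −0.28, the largest of the list there.

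NORAD (ENSG00000260032) is a single-exon RNA of 5339 bases on the minus strand of chromosome 20, at 36045622 to 36050960, and no other listed gene overlaps it. NORAD binds PUMILIO proteins such as PUM2, which repress mRNAs by way of the element TGTANATA, and depletion of NORAD is known to disturb chromosome segregation. The GENCODE transcript of NORAD, read on the RNA strand alone, holds the element 15 times between bases 761 and 4599. The spelling TGTATATA occurs 10 times, TGTAAATA 4 times and TGTACATA 1 time. A few of these sites are shown with their flanks because each spelling and the repeated context can be read from them, with the element in capitals and positions counted from the first base of the RNA. They lie on the minus strand at chr20:36049803-36049832 (position 1140), chr20:36049702-36049731 (1241), chr20:36049492-36049521 (1451), chr20:36047971-36048000 (2972) and chr20:36047350-36047379 (3593).
NORAD site 2: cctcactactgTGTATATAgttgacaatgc
NORAD site 3: aaatcacatttTGTAAATAcctttttgtta
NORAD site 5: tgtgtatatagTGTACATAaaggacagacg
NORAD site 11: caaccctactgTGTATATAgcggacaaact
NORAD site 14: caatgctactgTGTATATAatggaaaactt
Sites 2, 11 and 14 share the letters ctactg before the element. Of 12561 transcripts of 4000 to 7000 bases, 5088 (40.5%) held the element at least 1 time, and 3 (0.0239%) held it at least 15 times, NORAD included. The long NEAT1 transcript holds 6 (0.264 per kb, beside 2.81 per kb in NORAD) and KCNQ1OT1 holds 9 (0.0982 per kb), and the longest transcripts of MALAT1, PVT1 and H19 hold 0. A match of letters is a description and does not show binding in these cells.

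**Figure D3:**
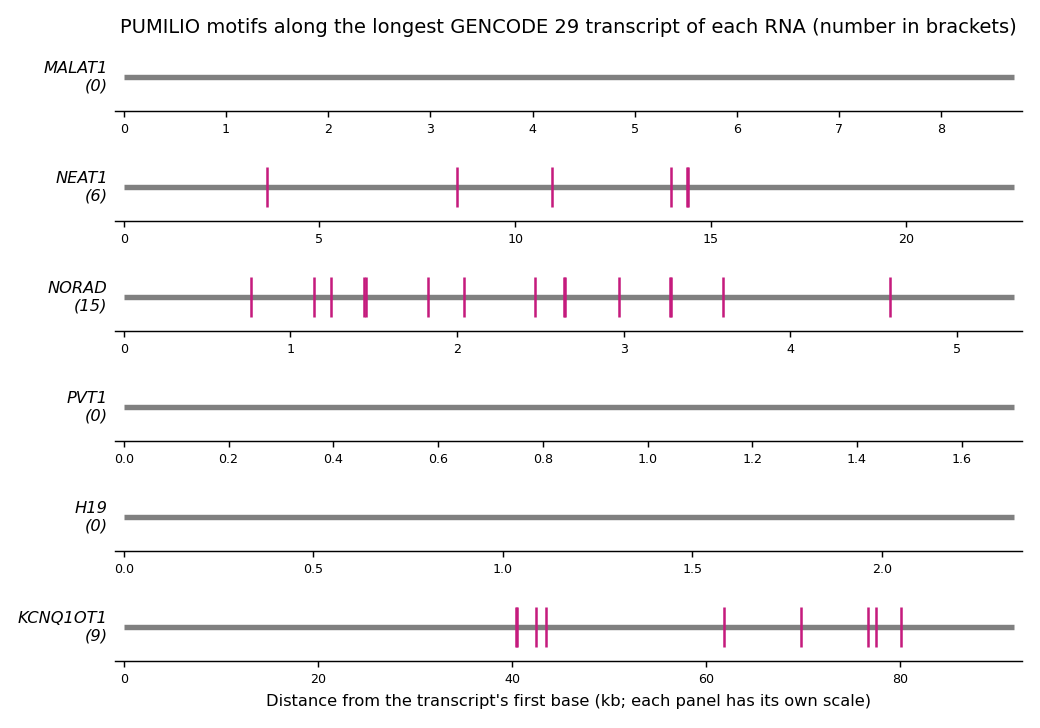
Position of each TGTANATA element (vertical lines) along the longest GENCODE 29 transcript of each RNA (horizontal bars, kb from the first base, each panel on its own scale), with the number of elements in brackets. NORAD carries 15 within 5339 bases, NEAT1 6 within 22743, KCNQ1OT1 9 within 91667, and the other members 0.

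NORAD measured 17.35 (shCON) and 16.46 TPM (shDDX52) in 22RV1 cells, and 36.16 (shCON) and 42.15 TPM (shDDX52) in PC3 cells. Both PC3 libraries were above both 22RV1 libraries, and the knockdown library was the lower one in 22RV1 and the higher one in PC3. The log2 ratios were −0.07 in 22RV1 (94.9% of control) and 0.22 in PC3 (117% of control). The first is too close to 0 to hold a direction, since it became 0.0041 once the median of all genes was set to 0. In the band of 10 to 50 TPM, 50.9% of genes in 22RV1 and 76.8% in PC3 had a ratio at or below that of NORAD.

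Of 10 PUMILIO and NORAD partners, 0 passed 1.5-fold in 22RV1 (median log2 ratio −0.11), and in PC3 3 were lower (median −0.22). PUM2 measured 7.53 (shCON) and 5.74 TPM (shDDX52) in 22RV1 cells, and 4.84 (shCON) and 5.90 TPM (shDDX52) in PC3 cells. PUM2 passed 1.5-fold in neither line, with −0.34 in 22RV1 as the lowest ratio of the list there, before KHDRBS1 at −0.16 and CNOT1 at −0.15. CNOT1, the scaffold of the deadenylase that PUMILIO proteins recruit, was 57.94 TPM in PC3 control cells and 31.22 TPM in PC3 knockdown cells (−0.87). NANOS1, a PUMILIO cofactor, was also at −0.87 in PC3, and CDC5L, a spliceosome protein reported to bind NORAD, was at −0.61.

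H19 (ENSG00000130600) lies on the minus strand of chromosome 11 at 1995176 to 2001470, with 2897 bases of exon. It is normally expressed from the maternal chromosome, while the neighbouring growth factor gene IGF2 is expressed from the paternal one. H19 measured 8.42 (shCON) and 7.63 TPM (shDDX52) in 22RV1 cells, and 0.56 (shCON) and 0.27 TPM (shDDX52) in PC3 cells. The cell lines did not overlap, and the shDDX52 library was the lower one in each. The log2 ratio was −0.13 in 22RV1, where shDDX52 was 90.6% of control. In PC3 both values were below 1 TPM, the ratio of the TPM values was 48.2%, and the log2 ratio moved from −0.08 with a pseudocount of 5 to −0.83 with a pseudocount of 0.1, so its size there is set by the pseudocount.

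H19 is also the precursor of miR-675, whose mature forms are shown from RefSeq as the other product of the same RNA, with the seed (bases 2 to 8) in capitals. They lie on the minus strand of GRCh38 at chr11:1996800-1996822 and chr11:1996768-1996787.
hsa-miR-675-5p: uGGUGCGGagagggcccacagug
hsa-miR-675-3p: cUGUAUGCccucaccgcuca
The gene MIR675 was listed at 0 in all 4 libraries, and so was MIR612 inside NEAT1. Libraries for long RNA do not measure mature microRNAs, so these values say nothing of their levels. The seeds of the pair differ.

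IGF2 was below 1 TPM in 22RV1, at 0.23 and 0.15, and was 3.0 TPM in PC3 control cells and 3.52 TPM in PC3 knockdown cells. H19 and IGF2 thus had opposite orders between the cell lines. Of 13 genes of the H19 and IGF2 domain and of the let-7 axis, 7 reached 1 TPM in 22RV1, where 2 were at least 1.5-fold lower and 0 higher (median log2 ratio −0.15). In PC3, 6 reached 1 TPM, with 0 lower and 1 higher (median 0.08). LSP1, next to the domain, was 1.89 TPM in 22RV1 shCON and listed at 0 in 22RV1 shDDX52. IGF2BP3, an oncofetal RNA-binding protein, was 7.29 and 4.51 TPM in 22RV1 and 5.47 and 8.94 TPM in PC3, with log2 ratios of −0.59 and 0.62. HMGA2, a chromatin protein and a let-7 target, was at 0.16 in 22RV1 and −0.51 in PC3, MRPL23 was at 0.25 in 22RV1, and IGF2BP2 was at 0.30 and IGF2 at 0.18 in PC3.

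KCNQ1OT1 (ENSG00000269821) is an unspliced antisense RNA of 91667 bases on the minus strand of chromosome 11, at 2608328 to 2699994, inside the potassium channel gene KCNQ1 and 606857 bases from H19. It is expressed from the paternal chromosome and silences neighbours there, CDKN1C among them. KCNQ1OT1 measured 0.06 (shCON) and 0.07 TPM (shDDX52) in 22RV1 cells, and 0.06 (shCON) and 0.08 TPM (shDDX52) in PC3 cells. The 4 libraries differed by no more than 0.02 TPM, and the ranges of the lines overlapped. In each line the shDDX52 value was the higher one, but rounding to 2 decimals alone allows a ratio between 1.00 and 1.36 in 22RV1 and between 1.15 and 1.55 in PC3. KCNQ1OT1 takes no part in the counts above because it did not reach 1 TPM.

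KCNQ1, which is read from the opposite strand over the same bases, was 6.23 and 7.82 TPM in 22RV1 and listed at 0 in both PC3 libraries. The kit is not stated to mark strand, so reads of the pair within shared bases cannot be told apart. CDKN1C, a cyclin-dependent kinase inhibitor, measured 4.0 (shCON) and 4.17 TPM (shDDX52) in 22RV1 cells, and 5.96 (shCON) and 7.86 TPM (shDDX52) in PC3 cells. Its PC3 values were above both 22RV1 values, and its log2 ratio in PC3 was 0.35. Of 12 genes of the KCNQ1 domain, 9 reached 1 TPM in 22RV1, where 1 was at least 1.5-fold lower and 0 higher (median 0.10), and 8 reached it in PC3, where 0 passed (median −0.01). The 1 lower gene was CARS, the cysteinyl-tRNA synthetase, at 81.66 and 53.10 TPM. PHLDA2, an imprinted growth regulator, was at 0.36 in 22RV1 and −0.43 in PC3, KCNQ1 was at 0.29 and NAP1L4 at −0.27 in 22RV1, and TSSC4 was at −0.38 and CD81 at 0.28 in PC3.

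PVT1 (ENSG00000249859) lies on the plus strand of chromosome 8 at 127794533 to 128101253 and starts 53098 bases after the end of MYC. It has 25 GENCODE transcripts and 5493 bases of exon, and it is often gained in copy number together with MYC in tumours. PVT1 measured 13.72 (shCON) and 15.07 TPM (shDDX52) in 22RV1 cells, and 30.36 (shCON) and 32.99 TPM (shDDX52) in PC3 cells. The PC3 libraries were both higher than the 22RV1 libraries, and the shDDX52 library was slightly the higher one in each line. The log2 ratios were 0.13 in 22RV1 (a ratio of TPM of 1.10) and 0.12 in PC3 (a ratio of TPM of 1.09), and 76.2% and 68.0% of the genes of 10 to 50 TPM had a ratio at or below them. PVT1 was the single member of at least 1 TPM in both lines whose ratio was above 0 in both.

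MYC, the transcription factor gene beside PVT1, measured 168.62 (shCON) and 146.66 TPM (shDDX52) in 22RV1 cells, and 192.43 (shCON) and 122.44 TPM (shDDX52) in PC3 cells. The shDDX52 library was the lower one in both lines, with log2 ratios of −0.20 and −0.65, so MYC and PVT1 differed in sign in each line. The log2 ratio of PC3 to 22RV1 for MYC was 0.19 with shCON and −0.26 with shDDX52, whereas PVT1 was higher in PC3 with both hairpins. MYC was the only gene within 250 kb of PVT1 to reach 1 TPM. Of 13 genes of the wider neighbourhood 12 were matched. In 22RV1, 6 reached 1 TPM with 1 lower and 0 higher (median −0.19), and in PC3, 7 reached it with 2 lower and 0 higher (median −0.44). NSMCE2, a SUMO ligase subunit, was lower in both lines, at 18.59 and 9.54 TPM in 22RV1 (−0.89) and 33.19 and 20.53 TPM in PC3 (−0.67). The others with the largest ratios were ASAP1 at −0.47 and TRIB1 at 0.22 in 22RV1, and FAM49B at −0.48 and TRIB1 at −0.44 in PC3. CASC8, a long noncoding RNA upstream of MYC, was 0.23 and 0.83 TPM in 22RV1 and 41.57 and 45.88 TPM in PC3.

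**Figure D4:**
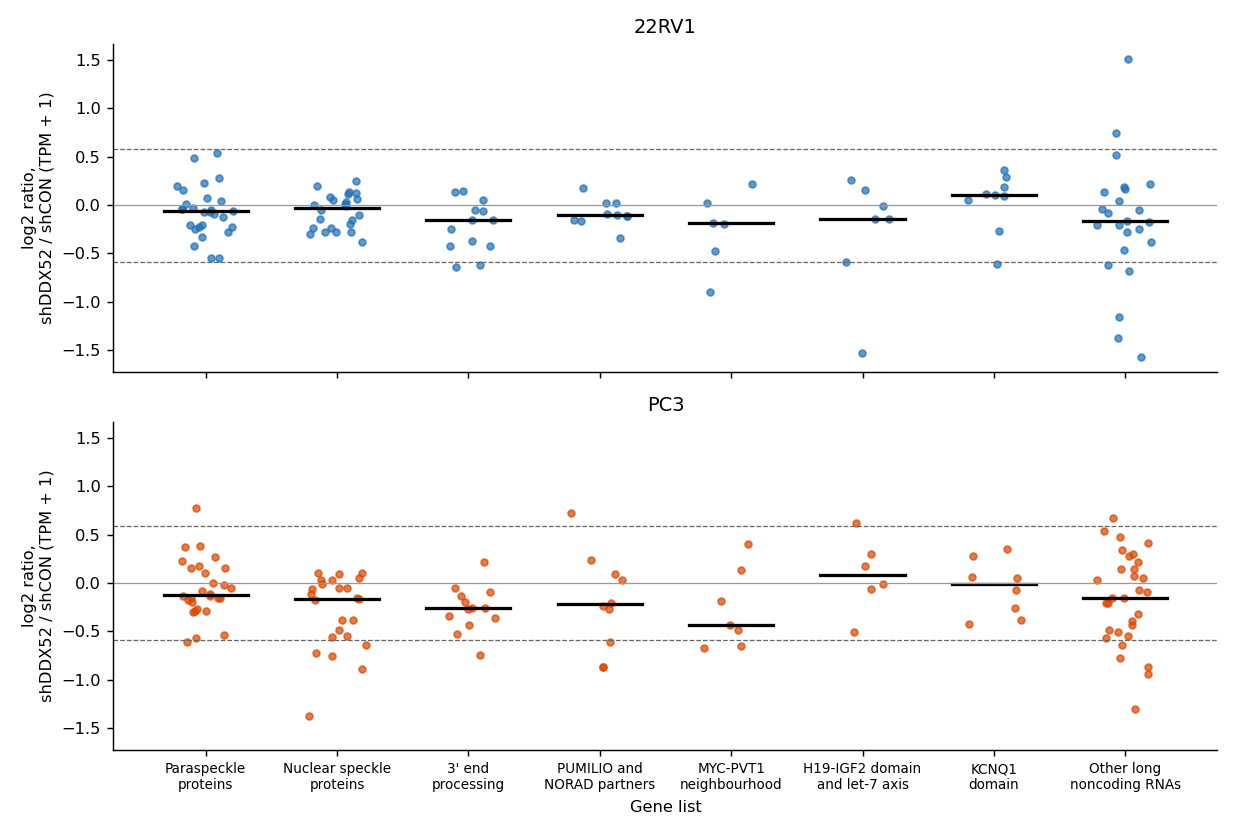
log2 ratio of shDDX52 to shCON (TPM + 1) of each gene of at least 1 TPM in 8 gene lists, with 22RV1 above and PC3 below, black bars at the medians and dashed lines at 1.5-fold. No paraspeckle, nuclear speckle or PUMILIO list gene passes 1.5-fold in 22RV1, and 5 nuclear speckle genes lie beyond the lower line in PC3.

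The difference between the cell lines was larger than that between the hairpins for MALAT1, NORAD, PVT1 and H19. Comparing like with like, shCON with shCON and shDDX52 with shDDX52, 2 of 5 members (MALAT1 and H19) were at least 1.5-fold lower in PC3 with both hairpins, beside 23.7% of 16525 genes. Another 2 (NORAD and PVT1) were at least 1.5-fold higher, beside 22.4%. NORAD was 2.08 times as high in PC3 with shCON and 2.56 times with shDDX52 (log2 ratios 1.02 and 1.31). For PVT1 the factors were 2.21 and 2.19 (log2 ratios 1.09 and 1.08). MALAT1 had log2 ratios of −0.69 and −0.87, and H19 of −2.59 and −2.76. Since H19 was below 1 TPM in PC3, its ratios depended on the pseudocount, from −3.69 and −4.38 with 0.1 to −1.27 and −1.26 with 5, and H19 was lower in PC3 with each. NEAT1 had log2 ratios of −0.64 with shCON and −0.33 with shDDX52, so the second value does not reach 1.5-fold and the ranges of the lines, 17.58 to 29.68 and 13.82 to 18.66 TPM, overlap. These comparisons use the same 4 libraries as the knockdown ratios, with 1 library per group.

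**Figure D5:**
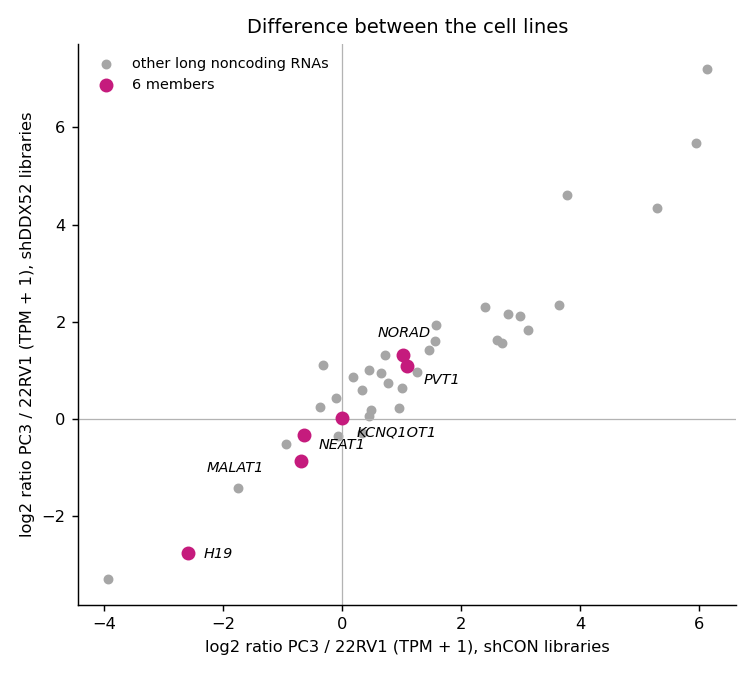
log2 ratio of PC3 to 22RV1 (TPM + 1) in the shDDX52 libraries (y axis) against the shCON libraries (x axis) for the 6 members (coloured) and 33 other long noncoding RNAs of at least 1 TPM (grey). H19, MALAT1 and NEAT1 lie below 0 on both axes, NORAD and PVT1 above 0 on both, and KCNQ1OT1 at 0.

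The genes nearest in pattern were found by the root mean square difference of log2(TPM + 1) over the 4 libraries, each gene centred on its own mean, among 13476 genes with a symbol and a mean of at least 1 TPM. For MALAT1 these were TDRD3, ARSA and RIOK1, with differences of 0.0184, 0.0255 and 0.0261. For NEAT1 they were DNAJC3, EIF1B and BLOC1S2 (0.0536, 0.0593 and 0.0618). NORAD was nearest to FAHD2B, LDAF1 and TMEM182 (0.0227, 0.0249 and 0.0275), and PVT1 to GPC1, GNE and MROH6 (0.0189, 0.0249 and 0.0285). SNHG7, a small nucleolar RNA host gene, was nearest to H19 (0.0322), at 69.19, 61.61, 9.92 and 8.13 TPM in the 4 libraries. TSPEAR-AS2 (0.0680) and CLYBL (0.0781) came next. Because H19 was below 1 TPM in PC3, its distances and its nearest genes depend on the added 1. With 4 points, many genes share any simple pattern: 263 genes lay within 0.1 of MALAT1, 129 of NORAD and 130 of PVT1. The patterns of NEAT1 and H19 were less common, with 21 and 13 genes within 0.1.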

How the data were processed

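Total RNA from 22RV1 and PC3 cells with shCON or shDDX52 was sequenced with 1 library per group. Reads were mapped by the authors with a web service, and expression was deposited as TPM for each Ensembl gene. The submitters' processing notes name CASAVA, HISAT2 and hg19 without their roles. The program behind the TPM and the annotation are not given in the sources used here, and 2218 of the 60671 identifiers are not in GENCODE 29. Positions, gene types and transcripts are from GENCODE 29 on GRCh38, and microRNA and mascRNA sequences from RefSeq (GRCh38.p14), so they describe the genes and not the deposited values. Every value column matched 1 library.

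The log2 ratio used a pseudocount of 1, and a gene entered a comparison if either of its libraries had 1 TPM or more. A gene was counted as lower or higher at 1.5-fold or more on that scale. Groups were compared without a statistical test, since each group has 1 library and TPM keeps no depth. Named genes were the 6 members, DDX52, the cell line markers, fixed partners (NONO, SFPQ, PSPC1, SON, SRRM2, METTL16, PUM2, MYC, IGF2, KCNQ1 and CDKN1C), up to 4 genes of each list with the largest ratio in each line, and the 3 genes nearest in pattern. Some genes of the rule are not reported here. The members and lists were chosen with earlier results of these data known. TALAM1 and CCAT1 found no identifier. The code that counts genes past 1.5-fold was tested on simulated data with known changes. Calculations used pandas 2.3.3, numpy 2.4.6 and matplotlib 3.10.9 under Python 3.11.15. Alternatives covered the pseudocount, the fold, the filter and the scaling.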

Additional observations from a re-analysis of the deposited data

Results flagged for a closer look

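NORAD had ratios on opposite sides of 0 in the cell lines, with a log2 ratio of −0.072 in 22RV1 and 0.22 in PC3. The difference between the lines was not tested, since each group has 1 library, and the value in 22RV1 turned to 0.0041 when the median of all genes was set to 0.

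RF01957, a feature of 159 bases inside NEAT1 at bases 1187 to 1345 from its start, was listed at 0 TPM in 22RV1 shCON, 22RV1 shDDX52 and PC3 shCON and at 23.56 TPM in PC3 shDDX52. RF01957 lies on the same strand within NEAT1 exon, so it is a segment of NEAT1 and is not shown to be a separate RNA. It stands out because it has its own identifier within a member and is above 0 in a knockdown library alone. Multiplied by its length it comes to 3.75 TPM times kilobases, beside 315 for NEAT1 with its full exon length in the same library. Whether it shares reads with NEAT1 was not tested.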

How the results depend on the processing

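Of 178 alternative values for 32 results, 168 stayed within 0.2 (log2) or within 1.5 times the count, 10 moved further, and 0 of the values past 1.5-fold changed sign. The ratios of H19 moved furthest, with the pseudocount. NORAD in 22RV1 changed sign when ratios were centred on the median of all genes (0.0041). The number of members lower with shDDX52 in 22RV1 was 0 at 2-fold, and the number lower in PC3 than in 22RV1 with both hairpins was 1 at 2-fold and 1 with a pseudocount of 5. Scaling to nuclear protein-coding genes moved the median of all genes in PC3 by 0.12. That scaling gave 1126 genes lower and 1850 higher in PC3 (1404 and 1276 before it), and centring gave 929 lower and 984 higher in 22RV1 (1223 and 810). Lower genes in 22RV1 and PC3 numbered 335 and 532 with a pseudocount of 5, 413 and 490 at 2-fold, and 588 and 793 among genes of at least 5 TPM, and higher genes 235 and 394, 323 and 408, and 335 and 708. The labels give no replicate numbers to pair, and with 1 library per group none could be left out. A fit with the cell line as a block would treat the 2 lines as replicates of the knockdown, and it was not run. Values below 1 TPM (H19 in PC3, KCNQ1OT1) are limited by unknown depth and by rounding.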

Other observations

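Of 47 other long noncoding RNAs 46 were matched. In 22RV1, 24 reached 1 TPM, with 5 at least 1.5-fold lower with shDDX52, 2 higher and a median log2 ratio of −0.17. EPB41L4A-AS1 was 34.69 TPM with shCON and 11.04 with shDDX52 (−1.57), CASC15 was 1.60 TPM and then listed at 0, and MIR4435-2HG was 1.86 and 0.28 TPM (−1.16). PCAT6, a transcript described in prostate cancer, was 0.14 and 2.25 TPM (1.51). CRNDE and PCAT14 were also lower and LINC00511 higher, named after their values were seen. CASC15, MIR4435-2HG, PCAT6, PCAT14 and LINC00511 stayed at or below 3.5 TPM in 22RV1, so their ratios there are limited by unknown depth. In PC3, 31 reached 1 TPM, with 5 lower, 1 higher and a median of −0.15. MIR100HG was 11.5 TPM with shCON and 4.08 with shDDX52 (−1.30), and MIR205HG (−0.95), MIR31HG (−0.87) and HOXA-AS2 (−0.77) were lower, as was UCA1, while LINC01128 was higher, the last 2 named after their values were seen.

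The same list differed more between the cell lines. In the shCON libraries 20 of 33 were at least 1.5-fold higher in PC3 than in 22RV1 and 3 lower. In the shDDX52 libraries 22 of 31 were higher and 2 lower. Among all 16525 genes of at least 1 TPM in any library, 22.4% were that much higher in PC3 with both hairpins and 23.7% lower. Passing with both hairpins is a stricter rule than that of the list counts, and shares for a single comparison were not computed. A gene could enter through either line: CYTOR, UCA1 and MIR205HG, for example, reached 1 TPM in PC3 alone, and CRNDE in 22RV1 alone. The median log2 ratio of PC3 to 22RV1 was 0.95 and 1.10 for the list, beside −0.15 and −0.25 for all long noncoding RNA genes of at least 1 TPM, so this list, chosen by hand, does not stand for that class. MIR4435-2HG measured 198.25 (shCON) and 186.52 TPM (shDDX52) in PC3 cells, and CYTOR, its near-identical relative, was 85.81 and 87.90 TPM in PC3 and below 1 TPM in 22RV1. There CYTOR was 0.41 (shCON) and 0.73 TPM (shDDX52), the opposite order to MIR4435-2HG in 22RV1. Their copies share sequence, and their separate levels are uncertain.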
